A study of Mus musculus with 30 samples.

Results

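The regions described here are open chromatin peaks of the mouse ventral hippocampus that lie more than 100 kb from the body of every protein-coding gene. They were taken from a single table of ATAC-seq peaks, in which a transposase cuts and tags accessible DNA, by keeping the peaks on chromosomes 1 to 19 (build GRCm38) whose distance to each of 21887 RefSeq protein-coding genes exceeded 100000 bp. The rule itself uses positions only. The rule kept 14097 of 257149 peaks (5.48%), called distal peaks below. Of the other autosomal peaks, 178478 lay inside or touched a protein-coding gene and 62520 lay between genes within 100 kb.

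The libraries came from 30 mice of both sexes, 1 library per animal, in 4 groups and 4 labelled batches. Handled mice were picked up daily as a control for restraint, and chronically restrained mice were held in a ventilated tube every day for 10 days. Mice of each history were then taken without further stress (0 min, home cage) or after being put back in the tube and sampled 45 min later, which for the handled mice was their first restraint. This gave 8 handled and 8 chronically restrained mice at 0 min and 7 of each at 45 min. Strain and age are not given in the sources used here, and all groups were housed singly before the final day. The nuclei came from whole tissue, so fewer cells of a type and less accessibility per cell cannot be told apart.

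Gene deserts are long stretches of a chromosome without protein-coding genes. In brain they often lie beside developmental transcription factors and synaptic adhesion genes, and distal enhancers in them can contact a promoter over long distances. They are not empty of transcripts: long noncoding RNAs (lncRNAs) and clusters of microRNAs start in them, among them the imprinted microRNA cluster between Rtl1 and Dio3 and the Mir344 family beside Ndn. A microRNA pairs with its targets mainly through its seed, bases 2 to 8 of the mature strand. Restraint releases glucocorticoids, whose receptor binds DNA at a palindromic response element, and activates AP-1 and CREB, which bind the AP-1 and cAMP response elements.

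Distal peaks overlapped 52 RefSeq microRNA hairpins in 28 peaks, giving 95 mature microRNAs with 81 distinct seeds. The sequences below are those of microRNAs well known from neurons and of some, not all, that share a seed across different hairpins. They are from RefSeq on GRCm38.p6, with the seed in capitals. They are shown because they name what the peaks of these deserts encode.
mmu-miR-379-5p: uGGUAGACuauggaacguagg
mmu-miR-1193-5p: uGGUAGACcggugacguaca
mmu-miR-379-3p: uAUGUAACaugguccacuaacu
mmu-miR-411-3p: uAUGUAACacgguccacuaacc
mmu-miR-134-5p: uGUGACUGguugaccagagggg
mmu-miR-410-3p: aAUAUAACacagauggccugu
mmu-miR-344d-3p: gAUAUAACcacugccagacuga
mmu-miR-344-3p: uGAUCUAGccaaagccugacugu
mmu-miR-344c-3p: uGAUCUAGucaaagccugacagu
mmu-miR-29a-3p: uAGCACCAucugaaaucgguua
mmu-miR-29b-3p: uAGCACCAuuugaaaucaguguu
mmu-let-7c-5p: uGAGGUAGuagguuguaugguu
mmu-miR-125b-5p: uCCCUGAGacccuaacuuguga
mmu-miR-137-3p: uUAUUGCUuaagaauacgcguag
The pairs miR-379-5p and miR-1193-5p, miR-379-3p and miR-411-3p, miR-344-3p and miR-344c-3p, and miR-29a-3p and miR-29b-3p share a seed within a cluster. The seed AUAUAAC was shared between clusters on different chromosomes, by miR-410-3p of the Rtl1 to Dio3 cluster and miR-344d-3p of the Mir344 family.

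Distal peaks also overlapped 281 RefSeq start windows (250 bases before to 50 after a gene's start) of 247 noncoding genes, in 249 peaks. The window of Lncpint, a p53-induced lncRNA, is shown because it lies in the widest distal peak. The other windows are shown because they hold a motif of a factor that acts in stress, in capitals: the glucocorticoid response element in Mir100hg, the host transcript of miR-125b-1, and 2 AP-1 motifs and a cAMP response element in Gm32865.
Lncpint, chr6:31218425-31218724, minus strand: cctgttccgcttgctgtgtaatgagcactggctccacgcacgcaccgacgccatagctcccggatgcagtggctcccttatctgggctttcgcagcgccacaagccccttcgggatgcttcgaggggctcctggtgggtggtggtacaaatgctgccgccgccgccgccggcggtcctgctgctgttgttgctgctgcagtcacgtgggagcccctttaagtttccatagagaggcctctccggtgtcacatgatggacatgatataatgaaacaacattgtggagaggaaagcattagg
Mir100hg, chr9:41474643-41474942, plus strand: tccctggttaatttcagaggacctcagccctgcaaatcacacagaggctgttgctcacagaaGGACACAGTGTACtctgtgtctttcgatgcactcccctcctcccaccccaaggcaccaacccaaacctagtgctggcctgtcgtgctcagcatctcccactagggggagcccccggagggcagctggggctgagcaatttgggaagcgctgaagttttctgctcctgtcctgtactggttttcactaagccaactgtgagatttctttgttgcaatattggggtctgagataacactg
Gm32865, chr16:87128390-87128689, minus strand: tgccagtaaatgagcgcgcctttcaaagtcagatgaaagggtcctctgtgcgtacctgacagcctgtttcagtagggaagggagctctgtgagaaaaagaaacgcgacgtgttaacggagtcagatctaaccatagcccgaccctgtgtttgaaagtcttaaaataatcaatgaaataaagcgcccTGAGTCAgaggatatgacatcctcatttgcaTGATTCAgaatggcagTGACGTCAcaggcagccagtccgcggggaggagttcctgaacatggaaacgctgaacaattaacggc
Both strands were searched, and no letters of the AP-1 motif contain those of the cAMP response element or the reverse. The AP-1 motif (TGANTCA) was in 11% of the 281 windows, in 9.25% of 11311 lncRNA windows and in 7.84% of all 31396 autosomal windows. The glucocorticoid response element (both half-sites and their spacer) was in 1.07%, 0.539% and 0.487% of the same sets, and the cAMP response element (TGACGTCA) in 0.712%, 0.990% and 1.83%. The EGR motif (GCGTGGGCG) was in none of the 281, in 0.203% of the lncRNA windows and in 0.605% of all windows, and the CTCF core motif was in 2.14%, 1.4% and 2.24%. These are matches of letters and give no binding.

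Total counts per library were 26104576 to 55294838. Peaks within 1 kb of a gene end were present for 6 of 7 excitatory neuron markers, with a summed level of 908 to 1180 CPM (counts scaled by the size of the library) over the libraries, and for 2 of 4 choroid plexus markers, with 7.47 to 9.84 CPM. The ranges of all 9 marker lists overlapped between 0 and 45 min, and no marker peak was called for the acute effect. A single library stood apart. Animal 45, a handled female of batch 4 at 0 min, had 42.1% of its counts in peaks at gene ends (37.7% to 40.3% in the others) and a median log2 deviation over distal peaks of 0.52 from the mean of the libraries, against -0.14 to 0.15 in the others.

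Distal peaks were narrow. Their median width was 411 bp (quartiles 280 and 636 bp), against 561 bp over all peaks of the table. Of the distal peaks, 29.2% were under 300 bp and 10.2% reached 1 kb, against 17.3% and 25.1% of all peaks. The shift from gene bodies outward was graded: the median was 591 bp inside or touching a gene and 531 bp between genes within 100 kb.

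**Figure D1:**
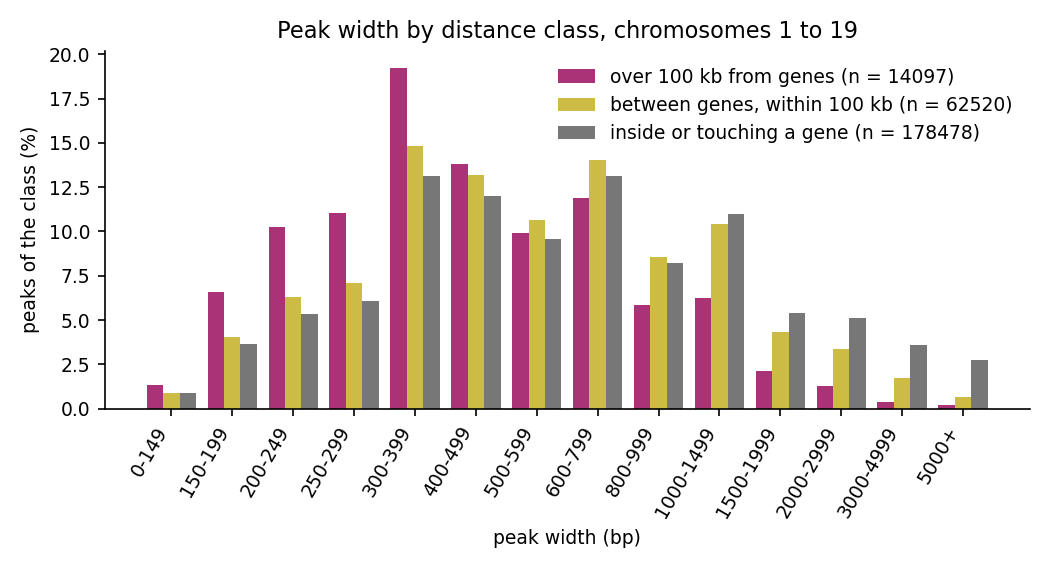
Share of each class of autosomal peaks (y axis, %) by peak width in bp (x axis, bins of unequal size) for distal peaks, peaks between genes within 100 kb, and peaks inside or touching a gene. Distal peaks outweigh both other classes in every bin under 400 bp and are the smallest share in every bin from 600 bp.

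Counts followed the width. A distal peak held a median of 49.1 counts per library against 58.97 over all peaks, and its median level was 1.24 CPM against 1.5 CPM. Per kb of peak the order was the other way round, with 3.05 CPM per kb in distal peaks and 2.74 over all peaks. The level varied more between home-cage animals of a group, with a median SD of log2 CPM of 0.323 against 0.266 over all peaks. Among peaks with a mean of at least 1 CPM, which 9011 distal peaks reached, these were 0.294 and 0.236. Counts were not matched between the classes beyond that limit. Here and below, the home-cage spread includes animal 45, which stood apart in distal peaks. How much of the difference in spread rests on that library was not tested.

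The distance to the nearest protein-coding gene had a median of 207283 bp. It was over 500 kb for 1728 distal peaks and over 1 Mb for 411. The farthest 3 lay 2209767 bp from Pik3c3 (chr18:28055404-28055847), 2198369 bp from Pcdh17 (chr14:82244940-82245193) and 2187254 bp from Pik3c3 (chr18:28077358-28078360). Their acute log2 changes were -0.45 ± 0.13, 0.25 ± 0.12 and -0.02 ± 0.07 (SE), and none was called. At the threshold, the 3 peaks just inside it lay 100014, 100017 and 100036 bp from Ranbp3l, Alg10b and Rapgef2 and had acute changes of 0.01, -0.42 and -0.03. The 3 just outside it lay 99969, 99961 and 99947 bp from Bcl11b, Tle3 and Gm38457 and had changes of 0.07, -0.21 and 0.02. The share of a chromosome's peaks that were distal ran from 2.71% on chromosome 19 to 8.95% on chromosome 13.

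Noncoding genes overlapped 3280 distal peaks (23.3%, against 11.4% of all peaks), and lncRNA genes overlapped 3145 (22.3% against 10.2%). Autosomal peaks between genes within 100 kb were close to the distal peaks, with 20.7% and 18.8%. Those inside or touching a protein-coding gene had 7.13% and 6.29%. The 249 peaks over a noncoding start window were wider (median 613 bp), higher (1.97 CPM) and less variable between home-cage animals (SD of log2 CPM 0.257) than the 10792 tested distal peaks with no annotated gene (397 bp, 1.21 CPM, 0.329). The 3052 in noncoding genes but off their start windows lay between, with 453 bp, 1.33 CPM and 0.303. Only 2052 distal peaks were also over 100 kb from every RefSeq gene of any kind (49943 genes).

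The 5 widest distal peaks all lay between Klf14, a Krüppel-like factor gene, and Mkln1, in and around Lncpint. The widest, chr6:31208706-31222005, spanned 13300 bp and held the start windows of Lncpint and 2210408F21Rik. Its level was 76.9 to 108 CPM (median 84.7) in handled mice at 0 min, 80.6 to 97.9 (85.3) at 45 min, 76.3 to 89.0 (85.8) in chronically restrained mice at 0 min and 80.1 to 89.9 (84.8) at 45 min. The 4 groups overlapped, and the acute change was 0.00 ± 0.04 (log2, SE; edgeR adjusted p = 0.996). Of the 3 least variable distal peaks of at least 1 CPM in home-cage animals, all were in this gap. One of them, chr6:31072899-31083629, spanned 57.6 to 66.3 CPM in the 8 handled mice at 0 min.

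The 5 distal peaks with the highest CPM per kb were of another kind, narrow, and 4 of them lay at an end of their chromosome, outside its outermost protein-coding gene. The peak chr14:124801514-124802294, 781 bp wide with no protein-coding gene beyond it and Fgf14 on its other side, ran from 195 to 532 CPM over the libraries of the 0 min groups. Like it, chr19:61331245-61331607 and chr1:195371555-195371996 lay beyond the last protein-coding gene of their chromosome and chr9:3001101-3001301 before the first. The narrowest of the 5, chr12:3109815-3109921, was 107 bp wide and lay 137506 bp from Rab10. Their acute changes were -0.10 to -0.02, and none was called. The most variable peaks of at least 1 CPM lay at Podxl (chr6:31803356-31803527, 0.379 to 2.67 CPM in handled mice at 0 min), Fign (chr2:63789739-63790027) and Adcy8 (chr15:64582455-64582749).

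Distal peaks were spread unevenly over the gaps between genes. They lay in 1146 gaps between neighbouring protein-coding genes, with a median of 7 in a gap, and the 6 fullest gaps held 710. The fullest lay between Rps24 and Zmiz1 (162 peaks), Enc1 and Arhgef28 (128), Mn1 and Cryba4 (127), Bcl11a and Fancl (104), Matn1 and Ptpru (99), and Arpp21 and Pdcd6ip (90). Bcl11a and Zmiz1 are transcriptional regulators of developing neurons, and Enc1 is an actin-binding protein of neurons. In the gap beside Rps24, 90 of the 162 peaks lay in noncoding genes.

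The first question was how the final restraint changed distal chromatin. Averaged over both histories, 37 distal peaks passed an adjusted p of 0.05 (edgeR quasi-likelihood test, Benjamini-Hochberg over all 257143 peaks tested, of which 14093 were distal), 16 higher and 21 lower at 45 min. That is 0.263% of the distal peaks tested (0.114% higher and 0.149% lower). The background was 0.116% of all peaks (0.0731% higher and 0.0432% lower). Among autosomal peaks between genes within 100 kb it was 0.176% (0.115% higher and 0.0608% lower). The share called higher was thus no greater than in these nearer peaks. The balance also differed from the table's: all peaks gave 188 higher and 111 lower calls, so distal peaks made up 8.51% of the higher and 18.9% of the lower calls. The distal split depended on the scaling and on animal 45. Total count scaling gave 23 higher and 57 lower, and the share of the most covered peaks as a covariate gave 33 and 315. Leaving out animal 45 gave 43 and 37. All-peak counts in these 3 settings are not given, so their splits are not set against a background. DESeq2 gave 18 higher and 34 lower distal peaks, against 251 and 183 over all peaks.

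As a class, distal peaks were slightly lower at 45 min. Their median log2 change was -0.060 and 32.3% of them had a positive change, against -0.0025 and 49% over all peaks. At an unadjusted p under 0.05 there were 331 higher and 1754 lower distal peaks. Without animal 45 the class median was -0.038 and 37.5% were positive. Within batches 1, 2, 3 and 4 it was -0.055, -0.090, 0.023 and -0.13, so batch 3 went the other way. The share of each library's counts in distal peaks showed the same in the raw numbers. It was 2.95% to 3.49% (median 3.16%) in handled mice at 0 min and 2.97% to 3.19% (3.06%) at 45 min. The chronically restrained mice had 3.04% to 3.41% (3.13%) at 0 min and 2.92% to 3.22% (3.03%) at 45 min. Medians were lower at 45 min in both histories, but all 4 ranges overlapped. The highest share, 3.49% (95% Wilson interval 3.48 to 3.49, counting error only), was that of animal 45. The mean share fell from 3.21% to 3.07% in batch 1, 3.15% to 2.98% in batch 2 and 3.27% to 3.14% in batch 4, with 3.05% and 3.04% in batch 3.

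**Figure D2:**
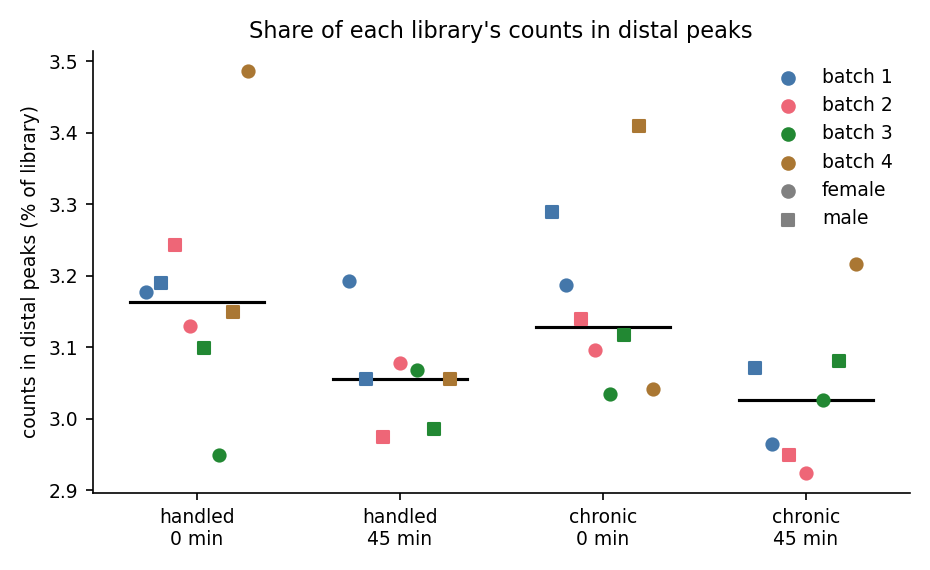
Share of a library's counts in distal peaks (y axis, %) for each of the 30 libraries in the 4 groups (x axis), coloured by batch, circles for females and squares for males, with a line at the group median. The 45 min medians (3.06% and 3.03%) sit below the 0 min medians (3.16% and 3.13%), the ranges overlap, and animal 45 is the highest point.

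The lower level was graded by distance. The median acute change was 0.0017 for peaks in or touching a gene and 0.0058 within 10 kb, then -0.014 between 10 and 50 kb and -0.030 between 50 and 100 kb. Among distal peaks it was -0.046 at 100 to 200 kb, -0.066 at 200 to 500 kb, -0.100 at 500 kb to 1 Mb and -0.13 beyond 1 Mb, where 18.8% of the 410 peaks tested had a positive change. Without animal 45 the 4 distal values were -0.028, -0.042, -0.066 and -0.092. Averaged over histories, batches 1, 2 and 4 each fell outward in every distal class, and batch 3 was positive in each (0.0075 to 0.032). In handled mice alone the distal values rose from 0.0017 to 0.049 in batch 1 and were 0.039 to 0.065 in batch 3. They were negative in batch 2 (-0.053 to -0.17) and batch 4 (-0.145 to -0.35). Batch 4 holds animal 45 and 1 library per history at 45 min. In chronically restrained mice they were -0.094 to -0.24, -0.070 to -0.22, 0.013 to -0.018 and -0.064 to -0.12 in batches 1 to 4. Low counts moved with the same measure: by mean count, distal peaks went from -0.095 under 20 counts to -0.032 at 200 or more, while other autosomal peaks went from -0.018 to 0.0033. At each level of counts distal peaks were below the others. The part of batch, depth and animal 45 in the class value was not tested beyond these values.

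**Figure D3:**
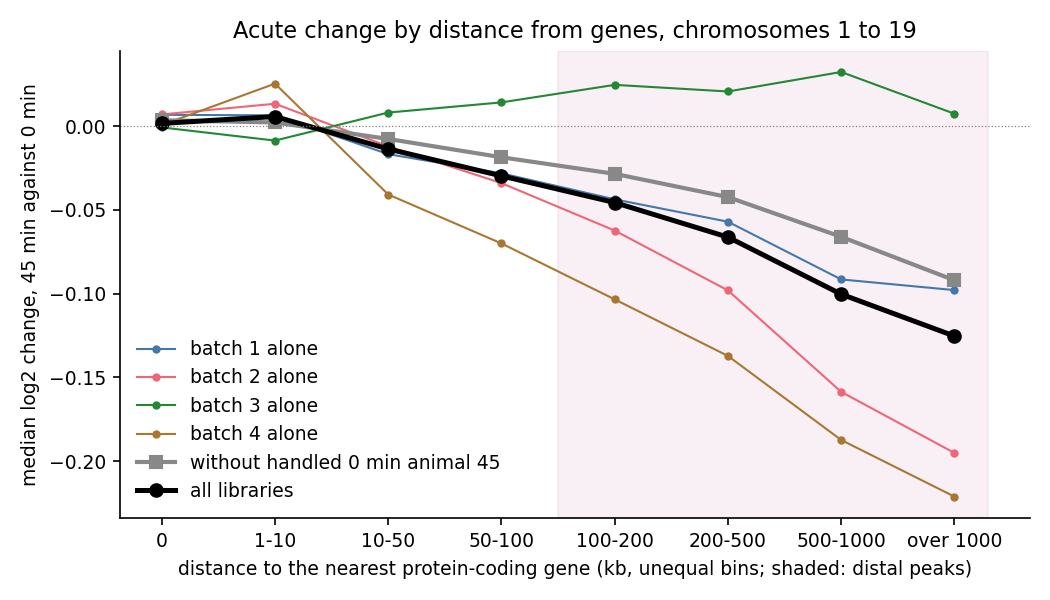
Median log2 change at 45 min against 0 min, averaged over both histories (y axis), by distance to the nearest protein-coding gene (x axis, kb, unequal bins, distal classes shaded) for all libraries, without animal 45, and in each batch alone. The line for all libraries falls from 0.0017 in genes to -0.13 beyond 1 Mb, batches 1, 2 and 4 fall with it, and batch 3 stays above 0 from 10 kb outward.

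The largest rise was in a peak of the gap between Plpp3, a lipid phosphate phosphatase, and Usp24, a deubiquitinase (chr4:106199773-106200140, 368 bp, 115839 bp from Usp24, no annotated gene). Handled mice spanned 0.572 to 0.845 CPM (median 0.765) at 0 min and 0.747 to 1.57 CPM (1.34) at 45 min. Chronically restrained mice spanned 0.434 to 1.11 CPM (0.681) at 0 min and 1.22 to 1.84 CPM (1.38) at 45 min. In chronically restrained mice every animal at 45 min was above every animal at 0 min, and in handled mice 1 animal at 45 min lay within the 0 min range. The averaged change was 0.88 ± 0.12 (log2, SE; edgeR adjusted p = 2.6e-06), with 0.47, 1.13, 1.14 and 0.72 in batches 1 to 4.

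A peak in the lncRNA gene Gm30751, between Tcerg1l and Mapk1ip1 (chr7:138547827-138548261), spanned 1.02 to 1.81 CPM (median 1.40) and 1.49 to 3.02 CPM (1.62) in handled mice at 0 and 45 min, and 0.824 to 1.82 CPM (1.12) and 1.45 to 2.42 CPM (1.90) in chronically restrained mice. The times overlapped in both histories, and the change was 0.59 ± 0.10 (edgeR adjusted p = 0.00084). A peak in 4930546C10Rik, 396322 bp from Tcf4, a basic helix-loop-helix factor of neurons (chr18:68946405-68947106), had medians of 2.22 and 3.06 CPM in handled and 2.01 and 2.98 CPM in chronically restrained mice, and ranges from 1.72 to 3.70 CPM at 0 min and 2.37 to 3.84 CPM at 45 min. The change was 0.47 ± 0.08 (edgeR adjusted p = 0.0011). The next peak, 189 bp away, had a change of 0.09 ± 0.11 and was not called; the difference between the neighbours was not tested.

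2 peaks rose in the gap before Sgk1, the serum- and glucocorticoid-regulated kinase gene and a textbook target of the glucocorticoid receptor. The wider, chr10:21652096-21653250, lay 228933 bp from Sgk1. It spanned 4.02 to 6.17 CPM (median 4.89) in handled mice at 0 min and 6.2 to 8.10 CPM (7.37) at 45 min, and 2.46 to 6.40 CPM (3.98) and 5.04 to 7.80 CPM (6.29) in chronically restrained mice. The times did not overlap in handled mice and did in chronically restrained mice. Its change was 0.54 ± 0.11 (edgeR adjusted p = 0.036). The other, chr10:21628549-21628923, lay 253260 bp from Sgk1, had medians of 1.10 and 1.46 CPM in handled and 1.08 and 1.65 CPM in chronically restrained mice, and changed by 0.47 ± 0.11 (edgeR adjusted p = 0.040). This gap held 30 distal peaks with a median change of -0.052, 12 of them positive. Another call beside a glucocorticoid receptor target lay in Gm34105, 160195 bp from Tle3, a transcriptional corepressor (chr9:61211587-61212130). It had medians of 1.80 and 2.36 CPM in handled and 1.78 and 2.16 CPM in chronically restrained mice, with overlapping times, and changed by 0.42 ± 0.09 (edgeR adjusted p = 0.019).

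Some wide and well covered peaks also rose. A peak 139945 bp from Nuak1, a protein kinase gene (chr10:84228899-84230954, 2056 bp, mean of 522 counts), spanned 8.05 to 16.4 CPM at 0 min and 12.3 to 17.2 CPM at 45 min and changed by 0.35 ± 0.06 (edgeR adjusted p = 0.0013). A peak 158406 bp from Lrfn2, which encodes a postsynaptic adhesion protein (chr17:48771170-48773183, 2014 bp), spanned 9.52 to 14.7 CPM at 0 min and 12.1 to 16.4 CPM at 45 min and changed by 0.25 ± 0.05 (edgeR adjusted p = 0.0089). Between the homeobox genes Irx3 and Irx5 a peak (chr8:91922386-91923087) had medians of 3.37 and 4.70 CPM in handled and 3.02 and 4.52 CPM in chronically restrained mice and changed by 0.44 ± 0.09 (edgeR adjusted p = 0.0097). The other higher calls lay beside Rfx3 (chr19:27585587-27585813, 0.75 ± 0.15), Adamts5 (chr16:86536526-86536879, 0.57 ± 0.12), Tns3 (chr11:8229807-8230216, 0.45 ± 0.10), Auts2 (chr5:132929760-132930284, 0.32 ± 0.07), Dio2, the enzyme that activates thyroid hormone (chr12:90607843-90608352, 0.40 ± 0.09), Jarid2, a Polycomb cofactor (chr13:44421379-44422250, 0.32 ± 0.08), and Khdrbs3 (chr15:68795130-68796199, 0.28 ± 0.06).

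Among the peaks that fell, the one with the smallest p lay between Naf1, an assembly factor of small nucleolar ribonucleoproteins, and Nat1 (chr8:67181682-67182316, 291117 bp from Naf1). Handled mice spanned 3.42 to 7.31 CPM (median 3.64) at 0 min and 2.27 to 4.43 CPM (2.72) at 45 min. Chronically restrained mice spanned 2.76 to 3.88 CPM (3.36) at 0 min and 1.99 to 2.55 CPM (2.24) at 45 min. The times did not overlap in chronically restrained mice and did in handled mice. The change was -0.52 ± 0.09 (edgeR adjusted p = 0.0012). The level was also lower after chronic restraint, by -0.34 ± 0.09 averaged over times, which was not called (edgeR adjusted p = 0.82).

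The gap between Arpp21, a cAMP-regulated phosphoprotein, and Pdcd6ip held 90 distal peaks and 1 call (chr9:113488500-113489243). Its medians were 2.87 and 2.01 CPM in handled and 2.24 and 1.65 CPM in chronically restrained mice, with ranges of 1.64 to 3.54 CPM at 0 min and 1.48 to 2.30 CPM at 45 min. It fell by 0.47 on the log2 scale (SE 0.09, edgeR adjusted p = 0.0024). In the lncRNA gene Gm40159, 250838 bp from 4930519L02Rik, a peak (chr3:143291592-143292128) had medians of 2.29 and 1.42 CPM in handled and 2.15 and 1.49 CPM in chronically restrained mice, overlapped between times, and changed by -0.51 ± 0.10 (edgeR adjusted p = 0.0041).

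The peak chr2:55889775-55890264 lay between Kcnj3, a G protein-gated potassium channel, and Nr4a2, an activity-induced nuclear receptor 1216565 bp away. Handled mice spanned 0.869 to 2.35 CPM (median 1.32) at 0 min and 0.467 to 1.27 CPM (0.839) at 45 min, and chronically restrained mice 0.810 to 1.43 CPM (1.08) and 0.436 to 1.01 CPM (0.682). The times overlapped in both histories. The change was -0.64 ± 0.13 (edgeR adjusted p = 0.0079). The narrow peak chr8:76593945-76594086, 303996 bp from Nr3c2, the mineralocorticoid receptor gene, had medians of 0.518 and 0.268 CPM in handled and 0.540 and 0.413 CPM in chronically restrained mice. It changed by -0.67 ± 0.15 (edgeR adjusted p = 0.044) on a mean of 16.5 counts.

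4 of the 21 peaks that fell lay beside genes of synaptic adhesion and axon guidance. These were the guidance ligand Slit2 (chr5:47299485-47300014, -0.48 ± 0.10), the adhesion receptors Tenm2 (chr11:38673565-38674328, -0.36 ± 0.08) and Flrt2 (chr12:98023515-98024188, -0.33 ± 0.07), and the semaphorin receptor Plxna2 (chr1:194019280-194019661, -0.40 ± 0.10). The list they belong to flanked 1352 of the 14093 distal peaks tested, of which 0.149% were called lower. A peak beside Nrxn3, of the same list, rose, as did the peak beside Lrfn2, which is not on it. No theme is read from 4 calls. The Tenm2 peak had medians of 3.42 and 2.30 CPM in handled and 3.19 and 2.58 CPM in chronically restrained mice. Its ranges at 0 min (2.41 to 4.71 CPM) and 45 min (1.80 to 3.5 CPM) overlapped. Other peaks that fell lay beside Adamts5 (chr16:86015305-86015711, -0.49 ± 0.10), Jarid2 (chr13:44282450-44283476, -0.33 ± 0.07), Car8 (chr4:7596089-7596582 in Gm33752, -0.46 ± 0.10), Slc39a10 (chr1:47103153-47103572, -0.53 ± 0.11) and Sybu (chr15:44896268-44896519, -0.45 ± 0.10). The gaps from Adamts5 to N6amt1 and from Cd83 to Jarid2 thus each held 1 higher and 1 lower call. The remaining lower calls changed by -0.53 to -0.27.

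**Figure D4:**
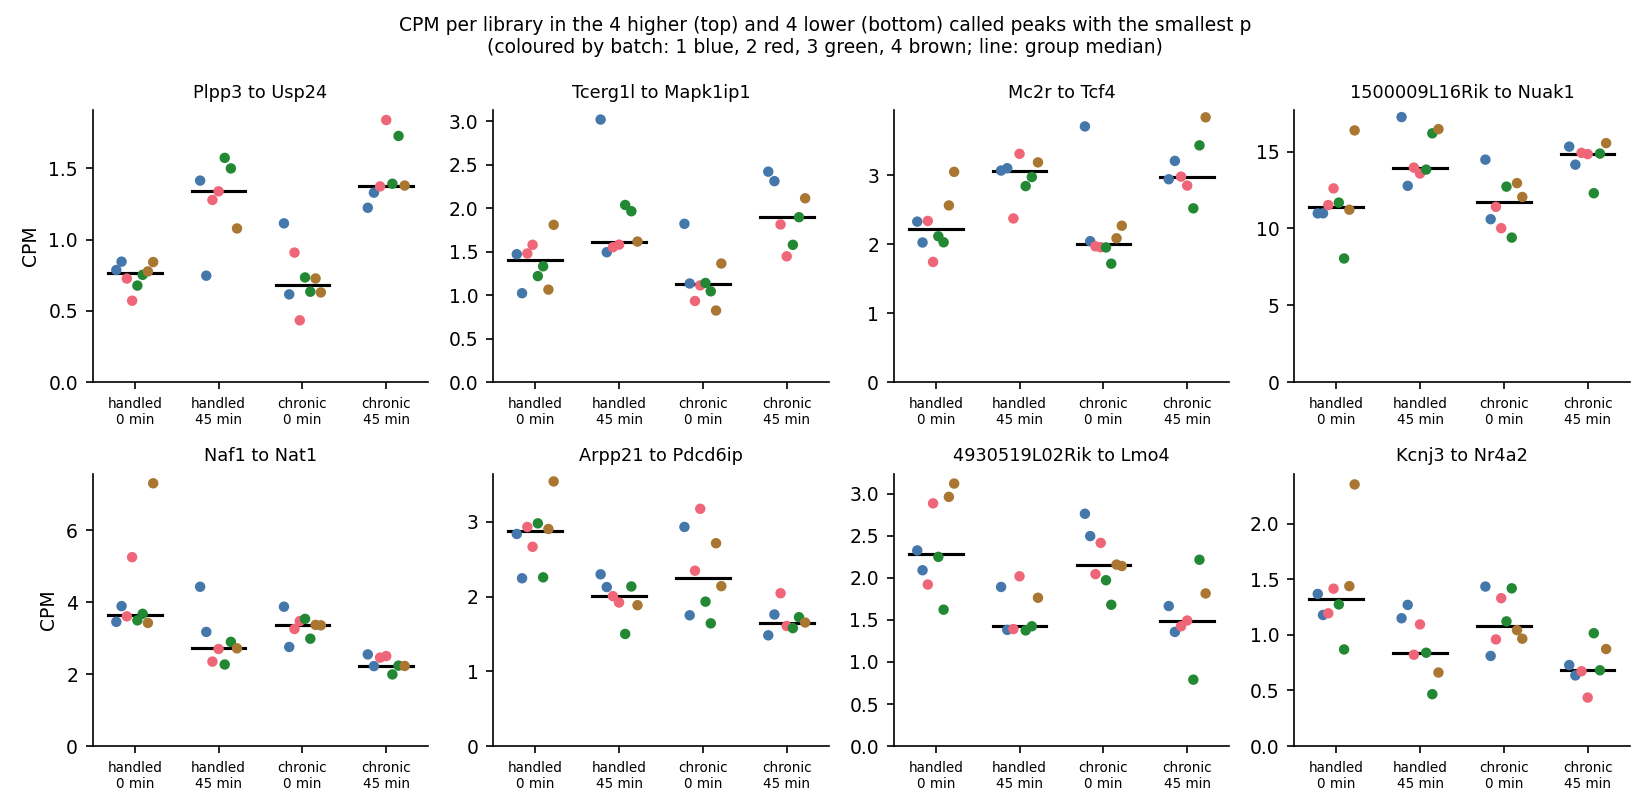
CPM per library (y axis, from 0) in the 4 groups (x axis) for the 4 higher (top) and 4 lower (bottom) called distal peaks with the smallest p, named by their flanking genes, coloured by batch, with a line at the group median. The medians shift the same way in both histories in all 8 panels, and the Plpp3 to Usp24 peak goes from 0.765 to 1.34 CPM in handled and 0.681 to 1.38 CPM in chronically restrained mice.

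Over the 37 called peaks, the direction was the same in 4 of 4 batches, in both histories and in both sexes, but these are the data that chose them. With all animals of both histories together, none of the 37 had ranges at 0 and 45 min that did not overlap. No adjacent peak was called, and 5 of the 37 lay in a noncoding gene, none of them at a start window. Called peaks had a median width of 525 bp and a median of 77.5 counts. All 37 were also called without animal 45. Without batch 2, 3 of the 37 were called (all distal peaks: 3), and without batch 3, 11 were (all distal peaks: 19). The 32 that had an adjusted p in DESeq2 were all called there.

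The flanking genes were grouped by lists of stress, neuronal and marker genes. A flanking gene is the nearest on either side and is not shown to be a target. Over all distal peaks tested 0.114% were called higher and 0.149% lower, against 0.0731% and 0.0432% of all peaks. At these shares most lists would hold few calls or none, so nothing is read from the counts of calls by list. Beside 4 of 30 glucocorticoid receptor target genes (Bcl6, Pdk4, Sgk1, Tle3) lay 94 distal peaks. Of these 3 were called higher (2 beside Sgk1 and 1 beside Tle3) and none lower, and the median change was -0.023 (0.011 without animal 45). Beside 50 of 71 forebrain transcription factors lay 1266, 2 called higher (Tcf4 and the Irx3 to Irx5 gap) and none lower, with a median of -0.064 (-0.044 without animal 45). Beside 63 of 80 synaptic adhesion and guidance genes lay 1352, 1 called higher (the Nrxn3 to Dio2 peak) and 4 lower. Their median was -0.111 with 21.8% positive, against -0.060 and 32.3% over all distal peaks. Without animal 45 these were -0.080 and 28.3%, against -0.038 and 37.5%. Distances and counts were not compared between the lists, and their part in the list medians was not tested. Within this list Epha4 (52 peaks, -0.17), Tenm2 (48 peaks, -0.15) and Efnb2 (45 peaks, -0.14) were low, and Plxna2 (53 peaks, -0.051) was near the class.

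Beside 10 of 37 immediate early genes lay 228 distal peaks, 1 called lower (the Kcnj3 to Nr4a2 peak) and none higher, with a median of -0.058 (-0.048 without animal 45). The 64 beside Gadd45g had a median of -0.015 and the 23 beside Jun -0.064. Beside glutamate and GABA receptor genes (322 peaks, median -0.066) none was called. Stress hormone and neuropeptide genes (171 peaks, -0.053) had the Nr3c2 call alone, and ion channel genes (155 peaks, -0.091) the Kcnj3 call. Without animal 45 the last 3 medians were -0.044, -0.035 and -0.066. Inhibitory neuron markers flanked 2 distal peaks (Dlx6), astrocyte markers 4 (0.016), oligodendrocyte precursor markers 11 (Pdgfra; -0.025) and markers of other brain regions 21 (-0.030), with no call. Without animal 45 the last 2 medians were 0.0056 and 0.0062. No oligodendrocyte, microglia, endothelial or choroid plexus marker flanked a distal peak.

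The gaps differed among themselves. Of 330 gaps with at least 15 distal peaks, 289 had a negative and 41 a positive median acute change, and 261 and 69 without animal 45. The lowest was between Tmprss15 and Ncam2, a neural adhesion gene, with -0.27 over 17 peaks of which 1 was positive (-0.23 without animal 45). The highest were between Nrip1 and Usp25 (0.083), and among the fullest gaps Mn1 to Cryba4 (0.026) and Matn1 to Ptpru (0.022) were positive and Bcl11a to Fancl (-0.098) negative. The imprinted gap from Ube3a to Snurf had 0.062 over 42 peaks. A called peak lay in 34 gaps, and 3 gaps held 2.

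The microRNA peaks did not pass the test in any comparison. Over the 28 peaks the acute change ran from -0.18 to 0.19 with a median of -0.0048, and the chronic change averaged over times from -0.13 to 0.15. The peak with most hairpins, chr12:109707855-109716663 in the Rtl1 to Dio3 cluster, covers 12 of them, miR-379 and miR-411 included. It spanned 25.4 to 31.7 CPM (median 29.6) and 27.7 to 31.4 CPM (28.8) in handled mice at 0 and 45 min, and 27.5 to 33.2 CPM (30.2) and 28.3 to 33.1 CPM (31.6) in chronically restrained mice. The 4 groups overlapped, and the acute change was 0.03 ± 0.04 (edgeR adjusted p = 0.93). The Mir134 peak (chr12:109733908-109735010), whose microRNA acts in dendritic spines, changed by 0.09 ± 0.07, the Mir137 peak (chr3:118433326-118433976) by -0.02 ± 0.09, the Mir125b-1 peak (chr9:41581686-41582607) by -0.02 ± 0.08, the let-7c-1 peak (chr16:77599459-77599909) by 0.01 ± 0.13 and the Mir29a and Mir29b-1 peak (chr6:31062692-31063781) by 0.07 ± 0.07. The Mir344 peak, chr7:61877336-61878386, changed by -0.14 ± 0.09. It was highest in a handled mouse at 0 min, with 15 CPM against a group median of 8.18.

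None of the 249 distal peaks over a noncoding start window was called for the acute effect, and at a background of 0.116% of all peaks nothing is read from that count. Their median change was -0.038, against -0.065 for distal peaks with no annotated gene, and -0.020 against -0.043 without animal 45. The start window peaks also had more counts (median 77.1 against 47.9) and lay nearer to genes (183465 against 210506 bp). Among peaks under 200 counts the medians with all libraries were closer, -0.052 against -0.067. The part of counts and distance in the difference was not tested. The peak of the Mir100hg window with its glucocorticoid response element (chr9:41474289-41475402) had medians of 5.72 and 5.64 CPM in handled and 5.35 and 5.90 CPM in chronically restrained mice and changed by 0.02 ± 0.06. Windows with the same element in Gm35341 (chr1:186407762-186408779) and Gm6999 (chr14:79890526-79891141) lay in peaks that changed by -0.22 ± 0.09 and 0.07 ± 0.10. The Gm32865 peak (chr16:87128255-87128692) changed by -0.12 ± 0.11. None of these passed the test.

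The next question was whether the acute change differed with history. In handled mice no distal peak was called, against 0.0109% of all peaks (28). edgeR gave 1418 distal peaks at an unadjusted p under 0.05, and DESeq2 called 1. In chronically restrained mice 1 was called, the Plpp3 to Usp24 peak (0.99 ± 0.16, edgeR adjusted p = 0.0025), against 0.00272% of all peaks (7). DESeq2 called no distal peak there and gave this one no adjusted p. The same peak in handled mice changed by 0.77 ± 0.16 (edgeR adjusted p = 0.063), and the difference between histories was 0.22 ± 0.23. The smallest p in handled mice after it and the Lrfn2 peak was at chr7:88820063-88820679, between Rab38 and Tmem135, with -0.63 ± 0.14 in handled and -0.10 ± 0.14 in chronically restrained mice.

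No distal peak was called for the difference between the 2 acute changes, nor was any peak of the table (0%). edgeR gave 427 distal peaks at an unadjusted p under 0.05, 216 higher and 211 lower, and DESeq2 called none. The smallest p were at chr1:113412940-113413186 before Cntnap5a (-0.92 ± 0.25), chr1:75798534-75799013 beside Slc4a3 (-0.71 ± 0.20) and chr2:57565303-57565654 beside Gpd2 (0.80 ± 0.23), each with an edgeR adjusted p of 1. As a class, distal peaks had an acute median of -0.062 in handled and -0.058 in chronically restrained mice. The handled value rested on animal 45: without it the medians were -0.014 and -0.064. In that fit 9 distal peaks were called in each history. The share of all peaks called in that fit is not given, so nothing is read from this count.

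**Figure D5:**
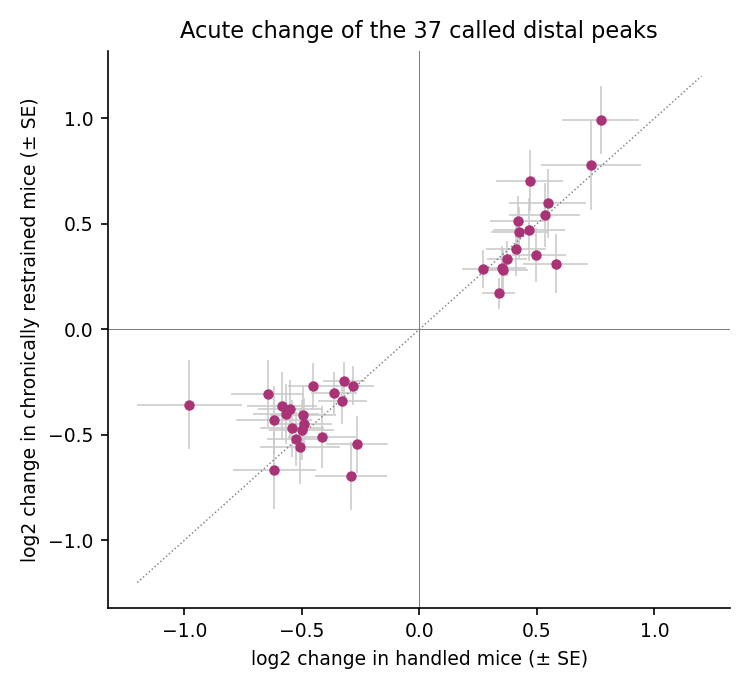
Log2 acute change with its SE in handled (x axis) and chronically restrained mice (y axis) for the 37 called distal peaks, with the line of equal change dotted. All points lie in the lower left or upper right quadrant, the Plpp3 to Usp24 peak highest at 0.77 and 0.99, and the Nr3c2 peak farthest left at -0.98 and -0.36.

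The last stress question was what 10 days of restraint left in distal chromatin. No distal peak and no peak of the table was called at 0 min, at 45 min or averaged over times (0% each). At an unadjusted p under 0.05 edgeR gave 882, 617 and 1021 distal peaks, and DESeq2 called no distal peak in any of them. The smallest averaged p was at chr16:12389348-12389980, 118443 bp from Shisa9, which encodes an auxiliary AMPA receptor protein. Handled mice spanned 1.16 to 3.27 CPM (median 2.03) at 0 min and 1.16 to 2.04 CPM (1.46) at 45 min, and chronically restrained mice 0.973 to 1.62 CPM (1.33) and 0.910 to 1.56 CPM (1.01). Medians were lower after chronic restraint at both times, the ranges overlapped, and the averaged change was -0.57 ± 0.11 (edgeR adjusted p = 0.28).

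2 further peaks had an averaged change of similar size. The peak chr12:46333364-46333701, 364193 bp from the splicing regulator Nova1, changed by -0.67 ± 0.14 (edgeR adjusted p = 0.58). The peak chr3:70313189-70313505 beside Otol1 changed by -0.53 ± 0.11 averaged and by -0.77 ± 0.16 at 45 min. At 0 min the smallest p was beside the actin nucleator Cobl (chr11:12843684-12843941, -0.77 ± 0.18), and at 45 min a peak 502062 bp from Cdh18 (chr15:23979554-23979919) had -0.56 ± 0.14. 2 peaks in the lncRNA gene Lncenc1, in the gap from Enc1 to Arhgef28, were also among the smallest p, chr13:97440905-97441354 at 0 min (-0.57 ± 0.15) and chr13:97496359-97496556 at 45 min (-0.80 ± 0.19). The former changed by -0.14 ± 0.16 at 45 min and the latter by -0.06 ± 0.18 at 0 min.

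The class medians for chronic restraint were -0.037 at 0 min, -0.033 at 45 min and -0.034 averaged, with 38.0% of distal peaks positive in the last. Without animal 45, which is in the handled 0 min group that the acute and chronic comparisons share, the medians were 0.022 at 0 min, -0.028 at 45 min and -0.0020 averaged, with 49.2% positive in the last. In males the 3 medians were 0.028, 0.030 and 0.029, and in females the 45 min median was -0.15. By distance the 0 min value was -0.031, -0.041, -0.064 and -0.044 in the 4 distal classes, and 0.017, 0.025, 0.025 and 0.053 without animal 45.

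For sex, 1 of the 14093 distal peaks was called (0.0071%), against 0.035% of all peaks (90), sex chromosomes included. Among the 240996 other autosomal peaks 3 were called (0.00124%), and from 1 call no difference is read. It lay 131680 bp from Adra2a, an adrenergic receptor gene (chr19:54180663-54181345), was higher in females by 0.44 ± 0.09 (edgeR adjusted p = 0.0082) and was not called without batch 1, 2 or 3. The class median was 0.027, and -0.0045 without animal 45, a female.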

How the data were processed

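The authors deposited raw counts, as whole numbers per peak, for 1 set of regions common to all libraries. Per the submitters' processing notes, Trimmomatic, Bowtie2, Picard, Genrich 0.6.1 and GRCm38 were used. How regions were combined, which tool counted, and whether reads, fragments or insertions were counted are not given in the sources used here. 2 columns that matched no sample were not used. Distances to RefSeq genes (GRCm38.p6) were taken with GenomicRanges 1.54.1 in R 4.3.3, and the table of genes gave extents without exons. The distal peaks and the gene lists were chosen with earlier results of these data known.

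Counts of all peaks were fitted in edgeR 4.0.16 (filterByExpr, TMM, glmQLFit with a robust prior, F-tests) with the 4 groups, sex and batch, and adjusted over all 257143 peaks tested. DESeq2 1.42.0 was an alternative. Log2 changes carry an SE computed back from the F statistic of their contrast (size of the change over the square root of F). Levels are TMM-scaled CPM. Animals are the replicates, and p-values measure the spread between them. The acute fit was tested on simulated data from the 257143 peaks: it called 38 of 100 changes of 0.4 (log2) and 100 of 100 of 0.8, with 8 false calls. The simulated counts held no batch or sex effect and no library that stood apart. Recovery and false calls in the presence of these were therefore not measured. A median distal peak held 49.1 counts per library, so counting error limits the precision of single peaks. Alternatives were other scalings, filters, covariates, distance thresholds, and leaving out animal 45, a batch or a sex. Values within single batches, and list, gap and start window medians without animal 45, were added after seeing the data.

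Named were, per comparison, the called peaks of smallest p (at most 12 higher and 12 lower), or the 3 smallest p where none was called, the 5 widest, 5 highest per kb, 3 farthest, 3 most and 3 least variable peaks, the 6 fullest gaps, the smallest p per list, and 3 peaks on each side of the threshold. The further calls beside Sgk1, Dio2, Jarid2, Khdrbs3 and Plxna2, the gaps outside the 6 fullest, and the microRNA and start window peaks were chosen after their values were seen. GC content and motifs of the peaks themselves, planned, were not run, since no genome was used. Some results that the rule names are not reported here.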

Additional observations from a re-analysis of the deposited data

Results flagged for a closer look

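Values per library were compared within each group for the peaks with the smallest p and for the library measures. A highest or lowest library was set apart where its gap to the next, over the group's range, exceeded Dixon's limit, which chance passes in about 1 of 20 groups. Of 116 groups of values, 16 held such a library, and 6 of the 16 were animal 45. It was far above the other handled mice at 0 min in 5 peaks that fell. At chr8:67181682-67182316 it had 7.31 CPM (next 5.25), at chr2:55889775-55890264 2.35 CPM (next 1.44), at chr16:86015305-86015711 3.57 CPM (next 2.4), at chr4:7596089-7596582 2.80 CPM (next 1.97) and at chr12:98023515-98024188 6.71 CPM (next 4.09). Its share of counts at gene ends was 42.1% (next 39.6%). All 5 peaks were called without it.

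Among handled mice at 45 min, animal 1 was high at chr7:138547827-138548261 (3.02 CPM, next 2.04) and at chr8:67181682-67182316 (4.43, next 3.17), animal 59 at chr8:91922386-91923087 (6.43, next 5.11) and chr4:7596089-7596582 (1.47, next 1.25), and animal 39 at chr16:86015305-86015711 (1.82, next 1.46). Among chronically restrained mice at 0 min, animal 3 was high at chr18:68946405-68947106 (3.70 CPM, next 2.27) and animal 24 at chr11:8229807-8230216 (2.08, next 1.41). At 45 min, animal 56 was low at chr10:84228899-84230954 (12.3 CPM, next 14.1), and animal 66 had 39.9% of its counts at gene ends (next 38.9%) and 21.3% in the most covered 1% of peaks (next 20.7%).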

How the results depend on the processing

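No paired analysis was possible because the replicate numbers are animal numbers and no number is shared between groups. The count of distal peaks called for the averaged acute effect (37) was 80 with total count scaling, 348 with the share of the most covered 1% of peaks added, 80 without animal 45, 17, 3 and 19 without batch 1, 2 and 3, 1 in females, 12 in males, and 0, 18, 1 and 0 within batches 1 to 4. With other distance rules it was 59 over 50000 bp, 20 over 200000 bp and 10 for genes of any kind. In handled mice (0) it was 4 with total count scaling, 1 with DESeq2, 77 with the share added, 9 without animal 45, 1 and 4 without batch 1 and 4, and 2 over 50000 bp. In chronically restrained mice (1) it was 2, 0, 11 and 9 in the first 4 of these settings, 3, 0, 0 and 3 without batches 1 to 4, 0 in either sex, 3 over 50000 bp and 0 with both other rules. For chronic restraint (0) it was 1 in males at 0 min and 2 averaged over times with the share added. For sex (1) it was 3 with the share added, 2 without animal 45, 0, 0 and 2 without batch 1, 2 and 4, and 0 over 200000 bp and for genes of any kind. The rules over 200000 bp and for genes of any kind keep subsets of the distal peaks, so their counts cannot be higher. What moved the other counts was not tested. Shares of all peaks called in these settings are not given here, so nothing is read from these counts about distal peaks alone.

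The class median turned for the acute effect within batch 3 (0.023), for chronic restraint at 0 min without animal 45 (0.022), without batch 4 (0.015) and in males (0.028), at 45 min in males (0.030, with -0.15 in females) and averaged in males (0.029). For the difference between histories (0.0063) it was -0.0051 with total count scaling, -0.049 without animal 45, -0.065 without batch 4 and -0.056 in females. For sex it was -0.0087 with the share added, -0.0045 without animal 45 and -0.0078 without batch 4. No called peak changed sign in any setting. The median width was 432, 385 and 357 bp, the CPM 1.28, 1.19 and 1.13 and the CPM per kb 2.99, 3.10 and 3.15 over 50000 bp (22702 peaks), over 200000 bp (7367) and for genes of any kind (2052).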
